A study of Mus musculus with 6 samples.

Results

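The 9 genes described here form the core of the p53 and INK4/ARF circuits in the mouse: Trp53, Mdm2, Mdm4, Cdkn1a, Cdkn2a, Cdkn2b, Cdkn2c, Trp63 and Trp73. They were chosen by symbol, matched to Ensembl identifiers, and are 9 of the 38561 gene IDs in the count files. RNA was sequenced from 2 osteosarcomas (right tibia and lumbar spine), 2 soft tissue sarcomas (both subcutaneous) and 2 samples of normal cells that an NG2 antibody had sorted out of skeletal muscle. All 3 groups carry the same genotype, NG2-Cre;p53flox/flox on a mixed background, so the sorted cells are not a p53 wild-type control. The driver is a Cre recombinase under the promoter of NG2, a proteoglycan of pericytes encoded by Cspg4, and only cells that use or once used this promoter are set to lose the floxed Trp53 segment. Which exons are floxed, how completely they were removed, and the age of the animals are not given in the sources used here. Nothing in the labels says that the 2 libraries of a group came from different animals, so p-values measure the spread between these libraries only.

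p53 is a transcription factor that halts or kills stressed cells. Mdm2, itself a p53 target, is a ubiquitin ligase that sends p53 to degradation, and its relative Mdm4 binds p53 and blocks its activity. The p53 target Cdkn1a encodes p21, an inhibitor of cyclin-dependent kinases. Cdkn2a encodes a pair of unrelated proteins from separate first exons: INK4A, which blocks the CDK4 and CDK6 kinases, and ARF, which holds Mdm2 away from p53. Cdkn2b and Cdkn2c encode further INK4 inhibitors of the same kinases, and Trp63 and Trp73 encode relatives of p53 with their own roles in epithelium and the nervous system. High ARF is a known feature of mouse fibroblasts that have lost p53.

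Expression is given as counts per 1000000 gene counts (CPM) after TMM scaling. Differences were tested with edgeR's quasi-likelihood test in 1 model of all 6 libraries. The Benjamini-Hochberg adjusted p was taken over 19024 genes, and a gene was called at an adjusted p under 0.05. In both tumour types Cdkn2a and Cdkn2b of the INK4/ARF locus and the separate INK4 gene Cdkn2c rose over NG2 cells. Trp53, Mdm4 and Cdkn1a fell in both. Mdm2 fell in soft tissue sarcomas, and its lower values in osteosarcomas did not pass the test. In osteosarcomas over NG2 cells 6 of the 8 members tested were called, 3 higher and 3 lower, where 21.5% of all genes tested were called (10.5% higher and 11.0% lower). In soft tissue sarcomas over NG2 cells it was 7 of 8, with 3 higher and 4 lower, against 19.3% of all genes (9.89% higher and 9.40% lower). Between soft tissue sarcomas and osteosarcomas no member was called by edgeR, where 0.142% of all genes were called (0.0841% higher and 0.0578% lower). In that comparison 3 members had an unadjusted p under 0.05. DESeq2 called 2 of them, Cdkn2a and Cdkn2b, where it called 1925 of all genes. In edgeR with DESeq2-type scaling, 3 members and 3025 of all genes had an unadjusted p under 0.05. The median log2 fold change of the tested members was 0.41 in osteosarcomas over NG2 cells (0.04 for all genes) and -1.51 in soft tissue sarcomas over NG2 cells (0.00 for all genes). Members lay on both sides of 0 in both comparisons, so these medians describe no typical member. Only Trp63, called in neither, changed sign between them (log2 1.84 ± 1.26 in osteosarcomas and -1.68 ± 1.27 in soft tissue sarcomas). Both tumour comparisons use the same NG2 libraries, so their results are not independent of each other.

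These calls rest on few libraries. In osteosarcomas over NG2 cells 2 members were called without the first NG2 library (Cdkn2a and Cdkn2b), 1 without the second (Cdkn2a), 5 without the first osteosarcoma and 4 without the second. In soft tissue sarcomas over NG2 cells 2 members were called without the first NG2 library (Cdkn2a and Cdkn2b) and 3 without the second (Mdm4, Cdkn2a and Cdkn2b). Without either soft tissue sarcoma no gene of the whole table was called by edgeR (4510 and 4286 had an unadjusted p under 0.05), and the 7 members had adjusted p of 0.0581 to 0.228, each with an unadjusted p under 0.05. Calls over all genes fell in each of these fits too, as given in the closing section, so the loss is not particular to the members. No direction of a called member turned in any of these fits.

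**Figure D1:**
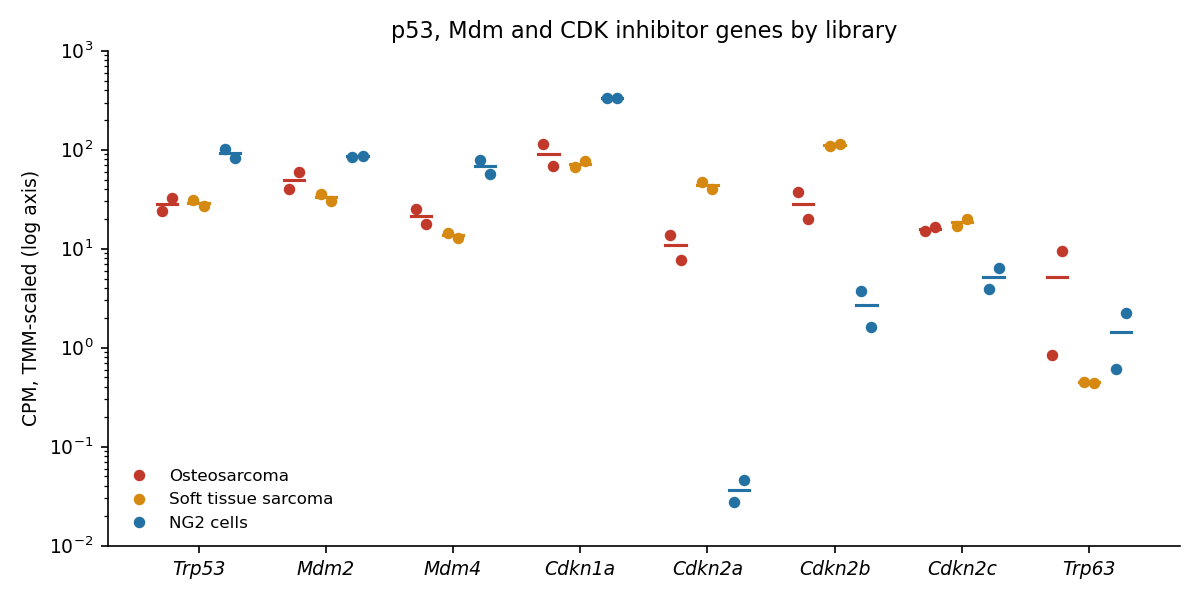
Level of each member in each library, in CPM on a log scale, with osteosarcomas, soft tissue sarcomas and NG2 cells from left to right and 1 point per library. Cdkn2a stands at 7.68 to 47.1 CPM in the 4 tumours and at no more than 0.0458 CPM in NG2 cells, and Trp53, Mdm4 and Cdkn1a are lower in every tumour than in either NG2 library.

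The libraries held 28107779 to 52056569 gene counts in osteosarcomas, 27693585 to 58126832 in soft tissue sarcomas and 39453073 to 44622315 in NG2 cells. The tissue labels were checked against marker lists, as summed CPM. Osteoblast markers came to 35052 and 38687 CPM in osteosarcomas and to 1842 to 2439 CPM in soft tissue sarcomas, against 96.3 and 104 CPM in NG2 cells. The median log2 fold change of the 8 osteoblast markers over NG2 cells was 9.43 in osteosarcomas. In soft tissue sarcomas it was 0.31 (-4.75 to 8.58), so the sum there does not stand for the whole list. The NG2 samples held much lymphocyte RNA: the 14 lymphocyte markers summed to 57.0 and 65.7 CPM in osteosarcomas and to 119 and 165 CPM in soft tissue sarcomas, against 4724 and 9826 CPM in NG2 cells, and all 14 were lower in both tumour types, with Ms4a1 at 0 in osteosarcomas. Granulocyte markers summed to 11.5 to 27.8 CPM in tumours, against 71.5 and 3530 CPM in NG2 cells, and endothelial markers to 132 to 401 CPM in tumours, against 1030 and 1780 CPM in NG2 cells. Macrophage markers summed to 2133 and 1982 CPM in osteosarcomas and to 5479 and 4516 CPM in soft tissue sarcomas, against 934 and 2498 CPM in NG2 cells. Pericyte markers summed to 341 and 821 CPM in osteosarcomas, 385 and 496 CPM in soft tissue sarcomas and 915 and 1473 CPM in NG2 cells, while Cspg4 itself stood at 118 and 37.7 CPM in osteosarcomas, 188 and 88.7 CPM in soft tissue sarcomas and 38.6 and 30.6 CPM in NG2 cells. The 9 pericyte markers had a median log2 fold change over NG2 cells of 0.88 in osteosarcomas and -0.50 in soft tissue sarcomas. The lower sums therefore do not stand for every pericyte marker. Immediate early genes, which respond to cell handling, reached at most 447 CPM in a tumour and 7262 and 8186 CPM in NG2 cells. Cell cycle genes summed to 976 to 1639 CPM in tumours and to 408 and 428 CPM in NG2 cells. The file names carry lane numbers that coincide with the groups. That these are sequencing lanes is read from the names only, and if so, lane and group cannot be told apart. The part of these differences in the members' results was not tested.

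The targeted gene, Trp53 (ENSMUSG00000059552, GRCm38 chr11:69580359-69591873, plus strand), was read in every library. It had 24.3 and 32.6 CPM in osteosarcomas, 31.2 and 27.3 CPM in soft tissue sarcomas and 101 and 82.3 CPM in NG2 cells. The tumour types overlapped, and every tumour lay below both NG2 libraries. Trp53 fell by 1.69 ± 0.30 (SE) on the log2 scale in osteosarcomas relative to NG2 cells (edgeR adjusted p = 0.0172) and fell by 1.65 ± 0.30 in the soft tissue sarcomas (edgeR adjusted p = 0.0199). The difference of soft tissue sarcomas from osteosarcomas was 0.04 ± 0.29 (edgeR adjusted p = 0.977). The raw counts behind these values were 1280 and 918 in osteosarcomas and 1861 and 810 in soft tissue sarcomas, against 3644 and 3591 in NG2 cells. These are counts over the whole gene, so they do not tell transcripts with the floxed exons from transcripts without them. A transcript without these exons is shorter, and the part of this in the lower Trp53 counts was not tested. In bulk RNA, fewer cells that express a gene and less of its RNA per cell cannot be told apart, here and for every member below. Without the first or the second NG2 library the osteosarcoma call on Trp53 was lost (edgeR adjusted p = 0.0677 and 0.0534).

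Of the p53 inhibitors, Mdm4 (ENSMUSG00000054387, chr1:132959484-133030561, minus strand) fell in both tumour types. Mdm4 had 25.2 and 17.8 CPM in osteosarcomas, 14.4 and 12.9 CPM in soft tissue sarcomas and 78.8 and 56.8 CPM in NG2 cells. No group overlapped another, with soft tissue sarcomas lowest. Mdm4 fell by 1.66 ± 0.34 on the log2 scale in osteosarcomas relative to NG2 cells (edgeR adjusted p = 0.0240). It fell by 2.31 ± 0.35 in soft tissue sarcomas relative to NG2 cells (edgeR adjusted p = 0.0138). The soft tissue sarcomas were at -0.65 ± 0.33 relative to osteosarcomas, which did not pass the test (edgeR adjusted p = 0.410). The osteosarcoma call on Mdm4 was lost without either NG2 library or without the second osteosarcoma (edgeR adjusted p = 0.0582 to 0.0945).

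Mdm2 (ENSMUSG00000020184, chr10:117688875-117710758, minus strand), the ubiquitin ligase, had 39.7 and 60.0 CPM in osteosarcomas, 36.0 and 30.2 CPM in soft tissue sarcomas and 85.2 and 86.7 CPM in NG2 cells. Every tumour lay below both NG2 libraries. Mdm2 fell by 1.38 ± 0.31 on the log2 scale in soft tissue sarcomas relative to NG2 cells (edgeR adjusted p = 0.0327). In osteosarcomas it was at -0.79 ± 0.30 and missed the threshold (edgeR adjusted p = 0.113). Soft tissue sarcomas were at -0.59 ± 0.30 relative to osteosarcomas (edgeR adjusted p = 0.413), although their Mdm2 values did not overlap.

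Set against Trp53 within each library and per kilobase of exon, Mdm2 was highest in osteosarcomas. The Mdm2 to Trp53 ratio of per-length levels was 1.30 and 1.46 in osteosarcomas, 0.918 and 0.880 in soft tissue sarcomas and 0.672 and 0.838 in NG2 cells. Both osteosarcomas lay above all other libraries. The absolute size of the ratio depends on the exon lengths used. The order of the libraries does not, as long as a gene has the same length in all of them. Trp53 transcripts without the floxed exons would be shorter, and their share in each library is not known. With 2 libraries against 2, an exact permutation test cannot go below p = 0.33, so this ratio is given as a description. The Mdm4 to Trp53 ratio was 0.284 and 0.149 in osteosarcomas, 0.126 and 0.129 in soft tissue sarcomas and 0.213 and 0.188 in NG2 cells. Here the osteosarcomas spanned the NG2 values and the soft tissue sarcomas lay under all others.

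**Figure D2:**
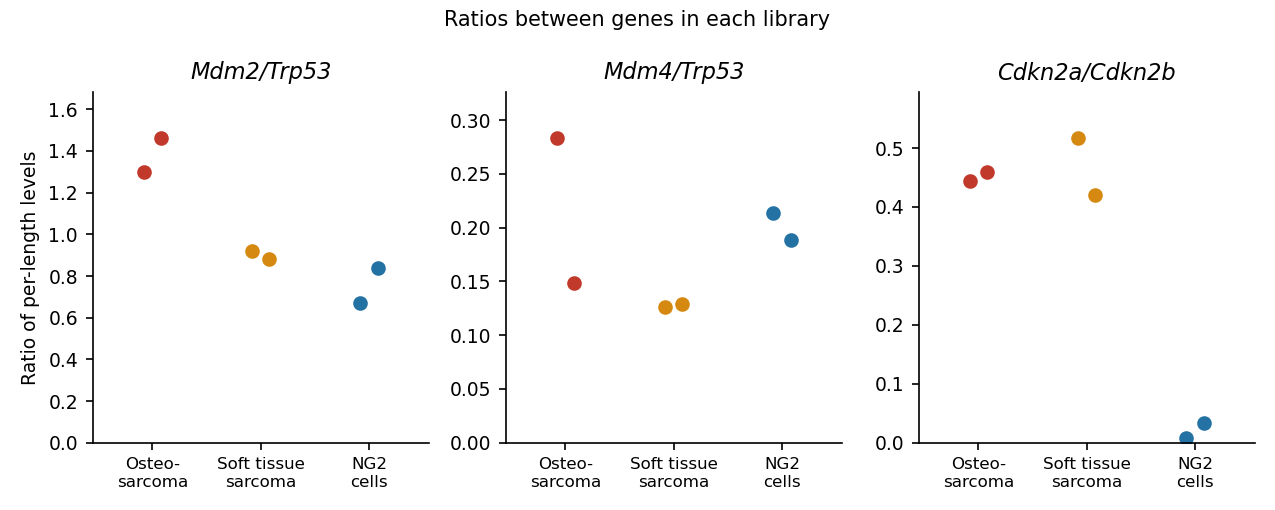
Ratios of per-length levels between members within each library, with osteosarcomas, soft tissue sarcomas and NG2 cells from left to right and 1 point per library. The Mdm2 to Trp53 ratio is 1.30 and 1.46 in osteosarcomas and at most 0.918 elsewhere, and the Cdkn2a to Cdkn2b ratio is 0.420 to 0.517 in all 4 tumours.

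Cdkn1a (ENSMUSG00000023067, chr17:29090976-29100727, plus strand), the p21 gene and a standard readout of p53 activity, had the largest drop in CPM among the members. It had 114 and 68.4 CPM in osteosarcomas, 67.3 and 76.5 CPM in soft tissue sarcomas and 336 and 330 CPM in NG2 cells. The tumour types overlapped and both stood far below NG2 cells. Cdkn1a fell by 1.87 ± 0.33 on the log2 scale in osteosarcomas (edgeR adjusted p = 0.0168) and fell by 2.21 ± 0.33 in the soft tissue sarcomas (edgeR adjusted p = 0.0137), both relative to NG2 cells. Soft tissue sarcomas were at -0.35 ± 0.32 relative to osteosarcomas (edgeR adjusted p = 0.657). The osteosarcoma call was lost without the first or the second NG2 library (edgeR adjusted p = 0.0631 and 0.0632). Cdkn1a is also induced by stress signals that do not pass through p53, and the summed immediate early genes were lower in both tumour types as given above. The part of p53 or of such signals in the Cdkn1a result was not tested.

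Each RefSeq start region of a member (GRCm38.p6, 250 bases before to 50 bases after the annotated start, 13 windows for 8 members) was searched on both strands for the p53 consensus, allowing 1 mismatch. Of the members' windows 1 held a match: the upstream of the Cdkn1a starts, at chr17:29090729-29091028 on the plus strand, with its match beginning 51 bases before the start. Among all 32851 windows 0.0883% held such a match. The search took 2 half-sites of 10 bases with no gap between them, so sites with a gap were not sought. The 51 bases are counted from the upstream start, and the window of the other Cdkn1a start, at chr17:29093769, held no match. The upstream window is shown because it alone among the members' windows held a match, and the capitals mark the 20 bases of the match.
Cdkn1a upstream start: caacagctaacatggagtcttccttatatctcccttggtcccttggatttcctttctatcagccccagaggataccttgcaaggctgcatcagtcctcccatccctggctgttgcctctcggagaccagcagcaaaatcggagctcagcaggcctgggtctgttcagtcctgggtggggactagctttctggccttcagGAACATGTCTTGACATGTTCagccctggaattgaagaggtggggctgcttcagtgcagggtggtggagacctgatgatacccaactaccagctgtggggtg
The match describes the letters only, and windows without one say nothing about p53 there.

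Cdkn2a (ENSMUSG00000044303, chr4:89274471-89294653, minus strand), the INK4A and ARF gene, differed most. It was counted 733 and 216 times in osteosarcomas and 2810 and 1187 times in soft tissue sarcomas, against 1 and 2 times in NG2 cells. This was 13.9 and 7.68 CPM in osteosarcomas, 47.1 and 40.0 CPM in soft tissue sarcomas and 0.0277 and 0.0458 CPM in NG2 cells. No group overlapped another: the soft tissue sarcomas were highest and the NG2 cells were at the limit of detection. The depth-scaled counts, summed over a group, were 312 times those of NG2 cells in osteosarcomas (exact 95% counting interval 106 to 1514) and 1190 times in soft tissue sarcomas (407 to 5771). These intervals pool the counts of a group, so they cover counting error only and leave out the spread between libraries. Copies made by PCR were counted along with the molecules they came from, so the counting error itself may be larger. The fitted log2 fold changes, which at such low NG2 counts depend on the prior count, were 8.06 ± 0.63 in osteosarcomas (edgeR adjusted p = 0.00419) and 10.07 ± 0.66 in soft tissue sarcomas (edgeR adjusted p = 0.00730). Soft tissue sarcomas stood 4.03-fold above osteosarcomas, a log2 difference of 2.01 ± 0.43 that edgeR did not call (adjusted p = 0.128) and DESeq2 did (adjusted p = 0.00146).

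Cdkn2b (ENSMUSG00000073802, chr4:89306299-89311039, minus strand), the INK4B gene next to Cdkn2a, had the same order. It had 37.1 and 19.8 CPM in osteosarcomas, 108 and 113 CPM in soft tissue sarcomas and 3.74 and 1.60 CPM in NG2 cells. The 3 groups did not overlap. Cdkn2b rose 10.7-fold in osteosarcomas over NG2 cells (log2 3.42 ± 0.54, edgeR adjusted p = 0.0133) and 41.4-fold in soft tissue sarcomas (log2 5.37 ± 0.59, edgeR adjusted p = 0.00871). Soft tissue sarcomas were at 1.96 ± 0.51 on the log2 scale relative to osteosarcomas, with an adjusted p of 0.167 by edgeR and 0.00886 by DESeq2. The osteosarcoma call on Cdkn2b was lost without the second NG2 library (edgeR adjusted p = 0.0516). Without the first NG2 library the log2 fold change of Cdkn2b was 4.14 in osteosarcomas and 6.11 in soft tissue sarcomas. Per kilobase of exon the Cdkn2a level was a similar fraction of the Cdkn2b level in all tumours, at 0.444 and 0.459 in osteosarcomas and 0.517 and 0.420 in soft tissue sarcomas. In NG2 cells this fraction was 0.00879 and 0.0339, and rests on the 1 and 2 counts of Cdkn2a.

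The counts per gene merge the transcripts of Cdkn2a, so INK4A and ARF cannot be told apart in them. Their start regions are shown because they are separate in the genome, 12.427 kb apart, and differ in base composition. The annotated Cdkn2b start lies 16.413 kb from the upstream Cdkn2a start. Sequences are from RefSeq (GRCm38.p6), given 5′ to 3′ on the minus strand that all 3 starts use, with each CG dinucleotide in capitals. The upstream Cdkn2a window, which precedes the ARF first exon, is chr4:89294570-89294869.
Cdkn2a upstream start: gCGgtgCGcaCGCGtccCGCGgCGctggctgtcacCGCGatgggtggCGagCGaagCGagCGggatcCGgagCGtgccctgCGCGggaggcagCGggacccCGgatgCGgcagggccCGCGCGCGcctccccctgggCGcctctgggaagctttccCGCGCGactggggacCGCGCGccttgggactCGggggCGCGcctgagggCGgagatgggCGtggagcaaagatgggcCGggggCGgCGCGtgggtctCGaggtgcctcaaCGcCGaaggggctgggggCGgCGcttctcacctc
The downstream Cdkn2a window, which precedes the INK4A first exon, is chr4:89282143-89282442.
Cdkn2a downstream start: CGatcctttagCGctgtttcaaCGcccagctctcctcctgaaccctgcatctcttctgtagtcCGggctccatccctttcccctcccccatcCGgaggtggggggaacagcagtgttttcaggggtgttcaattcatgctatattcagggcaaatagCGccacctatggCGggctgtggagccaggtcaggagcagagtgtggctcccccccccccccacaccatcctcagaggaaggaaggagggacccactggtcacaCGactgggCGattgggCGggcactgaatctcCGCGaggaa
The Cdkn2b window is chr4:89310983-89311282.
Cdkn2b start: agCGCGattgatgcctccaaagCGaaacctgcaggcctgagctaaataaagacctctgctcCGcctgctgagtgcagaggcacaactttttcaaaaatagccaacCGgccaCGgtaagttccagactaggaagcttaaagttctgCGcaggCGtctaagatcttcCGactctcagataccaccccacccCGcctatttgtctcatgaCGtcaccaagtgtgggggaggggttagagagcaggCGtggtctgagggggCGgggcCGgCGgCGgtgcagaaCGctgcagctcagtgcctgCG
The upstream Cdkn2a window held 45 CG dinucleotides, a count that 1.93% of all windows reach. The downstream window held 12, which 39.6% of windows reach, and the Cdkn2b window 18, which 29.7% reach. The median window held 7.

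Cdkn2c (ENSMUSG00000028551, chr4:109660876-109667189, minus strand), the INK4C gene and a separate locus on the same chromosome, rose less. It had 15.3 and 16.4 CPM in osteosarcomas, 17.1 and 20.1 CPM in soft tissue sarcomas and 3.96 and 6.40 CPM in NG2 cells. Every tumour lay above both NG2 libraries. Cdkn2c rose by 1.61 ± 0.42 on the log2 scale in osteosarcomas over NG2 cells (edgeR adjusted p = 0.0448) and rose by 1.84 ± 0.43 in the soft tissue sarcomas (edgeR adjusted p = 0.0354). The difference of soft tissue sarcomas from osteosarcomas was 0.23 ± 0.41 (edgeR adjusted p = 0.846). The osteosarcoma call was lost without any 1 of the 4 libraries it compares, where the log2 fold change was 1.30 to 2.01. It was also lost without the low-count filter (edgeR adjusted p = 0.0556) and with a replicate block (edgeR adjusted p = 0.0665). With only the 4 libraries compared it was lost as well (edgeR adjusted p = 0.112). The soft tissue sarcoma call was lost with a replicate block (edgeR adjusted p = 0.0555).

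Of the relatives of p53, Trp63 was read at low levels in 5 of the 6 libraries and Trp73 in none. Trp63 (ENSMUSG00000022510, chr16:25683763-25892102, plus strand), a master gene of stratified epithelium, was counted 45 and 265 times in osteosarcomas and 27 and 13 times in soft tissue sarcomas, against 22 and 98 times in NG2 cells. Its levels were 0.853 and 9.42 CPM in osteosarcomas, 0.453 and 0.438 CPM in soft tissue sarcomas and 0.610 and 2.25 CPM in NG2 cells. The second osteosarcoma, from the lumbar spine, stood alone, and the other 5 libraries had 2.25 CPM or less. Its log2 fold change over NG2 cells was 1.84 ± 1.26 in osteosarcomas (edgeR adjusted p = 0.324) and became -0.73 without the second osteosarcoma. In soft tissue sarcomas it was -1.68 ± 1.27 relative to NG2 cells (edgeR adjusted p = 0.376) and -3.51 ± 1.35 relative to osteosarcomas (edgeR adjusted p = 0.289), the second of which became -0.93 without the second osteosarcoma and -4.36 without the first. Without the second NG2 library the value relative to NG2 cells was 3.07 in osteosarcomas and -0.43 in soft tissue sarcomas. A pseudogene inside Trp63, Gm27005, had 15 counts and the small nuclear RNA Gm24928 had 3 counts in the second osteosarcoma and none elsewhere. Keratinocyte markers summed to 0 CPM in the second osteosarcoma and to at most 4.98 CPM in any library. In the second osteosarcoma osteoclast markers summed to 14687 CPM, against 719 CPM in the first, and skeletal muscle fibre markers to 980 CPM, against 14.6 CPM in the first. The part of these in its Trp63 counts was not tested. Trp73 (ENSMUSG00000029026, chr4:154056253-154140208, minus strand), which encodes p73, had 0 counts in all 6 libraries. At these depths 0 counts allow up to 0.0569 and 0.107 CPM in osteosarcomas, 0.0503 and 0.101 CPM in soft tissue sarcomas and 0.0831 and 0.0688 CPM in NG2 cells, taking 3 counts as the limit.

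**Figure D3:**
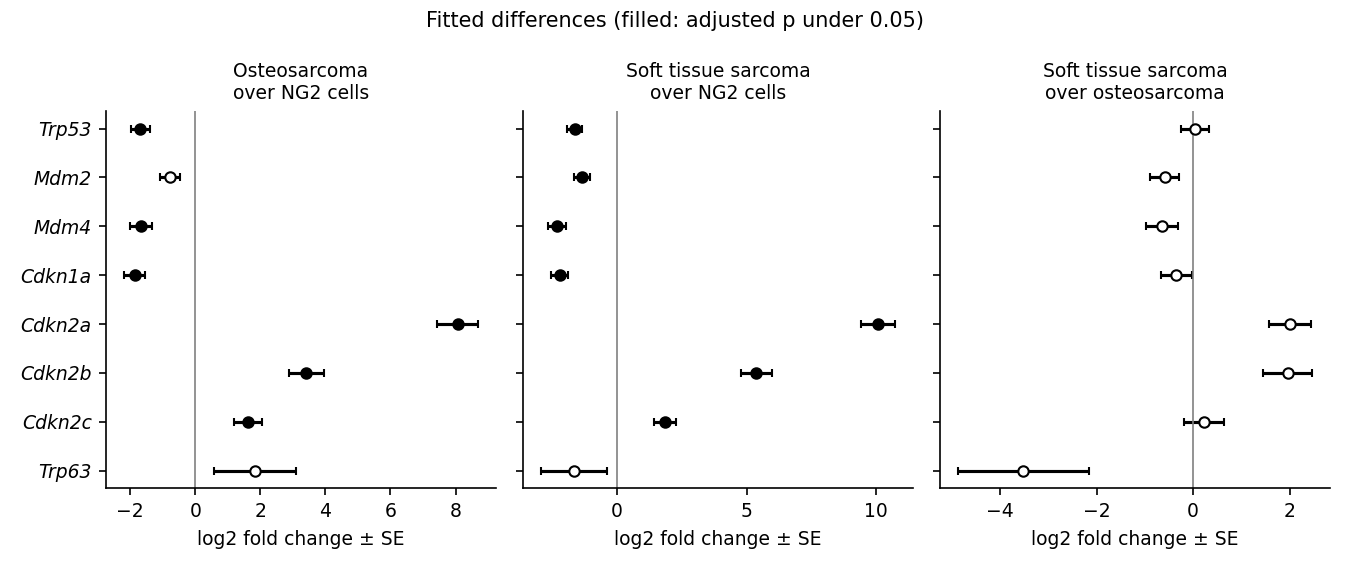
Log2 fold changes of the 8 tested members, with standard errors as bars, for osteosarcomas over NG2 cells, soft tissue sarcomas over NG2 cells and soft tissue sarcomas over osteosarcomas, 2 libraries per group. Cdkn2a and Cdkn2b lie furthest above 0 over NG2 cells, at 8.06 and 3.42 in osteosarcomas and 10.07 and 5.37 in soft tissue sarcomas.

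Per kilobase of exon, the order of the members differed between groups. In osteosarcomas Cdkn1a led at 25.7 ± 9.13 CPM per kb (SD, n = 2), and its libraries overlapped those of Cdkn2b at 20.5 ± 8.78. Mdm2 (9.81 ± 2.83), Cdkn2a (9.20 ± 3.75), Trp53 (7.03 ± 1.47) and Cdkn2c (5.90 ± 0.303) followed, each overlapping its neighbour in the order. Mdm4 (1.45 ± 0.353) and Trp63 (0.612 ± 0.722) came next, and Trp73, at 0 in every library, was last here as in the other groups. In soft tissue sarcomas Cdkn2b led at 79.5 ± 2.53 CPM per kb, then Cdkn2a at 37.2 ± 4.31 and Cdkn1a at 20.2 ± 1.84, with no overlap between them. Trp53 (7.23 ± 0.687), Cdkn2c (6.93 ± 0.777) and Mdm2 (6.51 ± 0.809) overlapped in sequence below them, ahead of Mdm4 (0.924 ± 0.0728) and Trp63 (0.0531 ± 0.00126). In NG2 cells Cdkn1a led at 93.7 ± 1.16 CPM per kb, followed without overlap by Trp53 at 22.7 ± 3.26, Mdm2 at 16.9 ± 0.199 and Mdm4 at 4.58 ± 1.05. Cdkn2c (1.93 ± 0.641) and Cdkn2b (1.92 ± 1.09) overlapped, and Trp63 (0.170 ± 0.138) and Cdkn2a (0.0314 ± 0.0109) followed. These levels use all exons of a gene, and with the longest transcript in their place 15 of the 24 group means moved by more than their spread.

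The genes beside the members were read to see how far a change reached along the chromosome. Of the 10 genes nearest the Cdkn2a and Cdkn2b pair, 5 on each side, 3 had enough counts to be tested. Mtap, a methionine salvage enzyme whose gene lies 93.4 kb away and is often lost with CDKN2A in human tumours, rose with the pair. Mtap had 94.3 and 78.6 CPM in osteosarcomas, 120 and 106 CPM in soft tissue sarcomas and 31.2 and 26.6 CPM in NG2 cells. Every tumour was above both NG2 libraries, and the log2 fold change was 1.58 ± 0.26 in osteosarcomas (edgeR adjusted p = 0.0150) and 1.97 ± 0.27 in soft tissue sarcomas (edgeR adjusted p = 0.0117). The osteosarcoma call on Mtap was lost without the first or the second NG2 library (edgeR adjusted p = 0.0569 and 0.0737), and the soft tissue sarcoma call without any 1 of its 4 libraries (0.0526 to 0.0906). The interferon gene Ifna1 was at 0 in all 4 tumours and at 1.19 and 0.642 CPM in NG2 cells, with an edgeR adjusted p of 0.0490 in osteosarcomas and 0.0507 in soft tissue sarcomas, and lost its call without any 1 library.

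Around Trp53, 2 of the 10 neighbours were called in each tumour type, close to the share of all genes (21.5% in osteosarcomas and 19.3% in soft tissue sarcomas), so the count is no result about the locus. The called pair was the same in both. Shbg, the sex hormone binding globulin gene 22.9 kb away, had 14.8 and 14.2 CPM in osteosarcomas, 9.85 and 7.35 CPM in soft tissue sarcomas and 0 in both NG2 libraries (edgeR adjusted p = 0.00552 for osteosarcomas and 0.00863 for soft tissue sarcomas). Kdm6b, the H3K27 demethylase gene 167 kb away, fell by 3.14 ± 0.26 on the log2 scale in osteosarcomas (edgeR adjusted p = 0.00480) and fell by 2.92 ± 0.26 in the soft tissue sarcomas (edgeR adjusted p = 0.00786). Wrap53, a gene 0.104 kb from Trp53 on the other strand, had 29.1 and 15.4 CPM in osteosarcomas, 13.6 and 24.5 CPM in soft tissue sarcomas and 22.4 and 11.2 CPM in NG2 cells, so its groups overlapped. Around Mdm2, 3 of 8 tested neighbours fell in both tumour types, where 11.0% of all genes fell in osteosarcomas and 9.40% in soft tissue sarcomas. Cpm, a carboxypeptidase gene 1.52 kb away, had 0.436 and 0.747 CPM in osteosarcomas and 2.01 and 1.99 CPM in soft tissue sarcomas, against 230 and 93.5 CPM in NG2 cells. Rap1b, a small GTPase gene 103 kb away, fell by 0.99 ± 0.26 on the log2 scale in osteosarcomas (edgeR adjusted p = 0.0453) and fell by 1.56 ± 0.27 in the soft tissue sarcomas (edgeR adjusted p = 0.0173), and Lyz1, a lysozyme gene, was the other. Around Mdm4, 1 of 8 tested neighbours was called, no more than the share of all genes: Pik3c2b, a lipid kinase gene 15.1 kb away that fell by 2.59 ± 0.52 in osteosarcomas (edgeR adjusted p = 0.0235) and fell by 2.91 ± 0.53 in the soft tissue sarcomas (edgeR adjusted p = 0.0203). With 1 library left out at a time, the osteosarcoma calls on Shbg, Kdm6b, Cpm and Lyz1 held, and those on Rap1b and Pik3c2b did not (adjusted p up to 0.138 for Rap1b and 0.0851 for Pik3c2b). The osteosarcoma value of Pik3c2b was -3.45 without the second osteosarcoma.

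**Figure D4:**
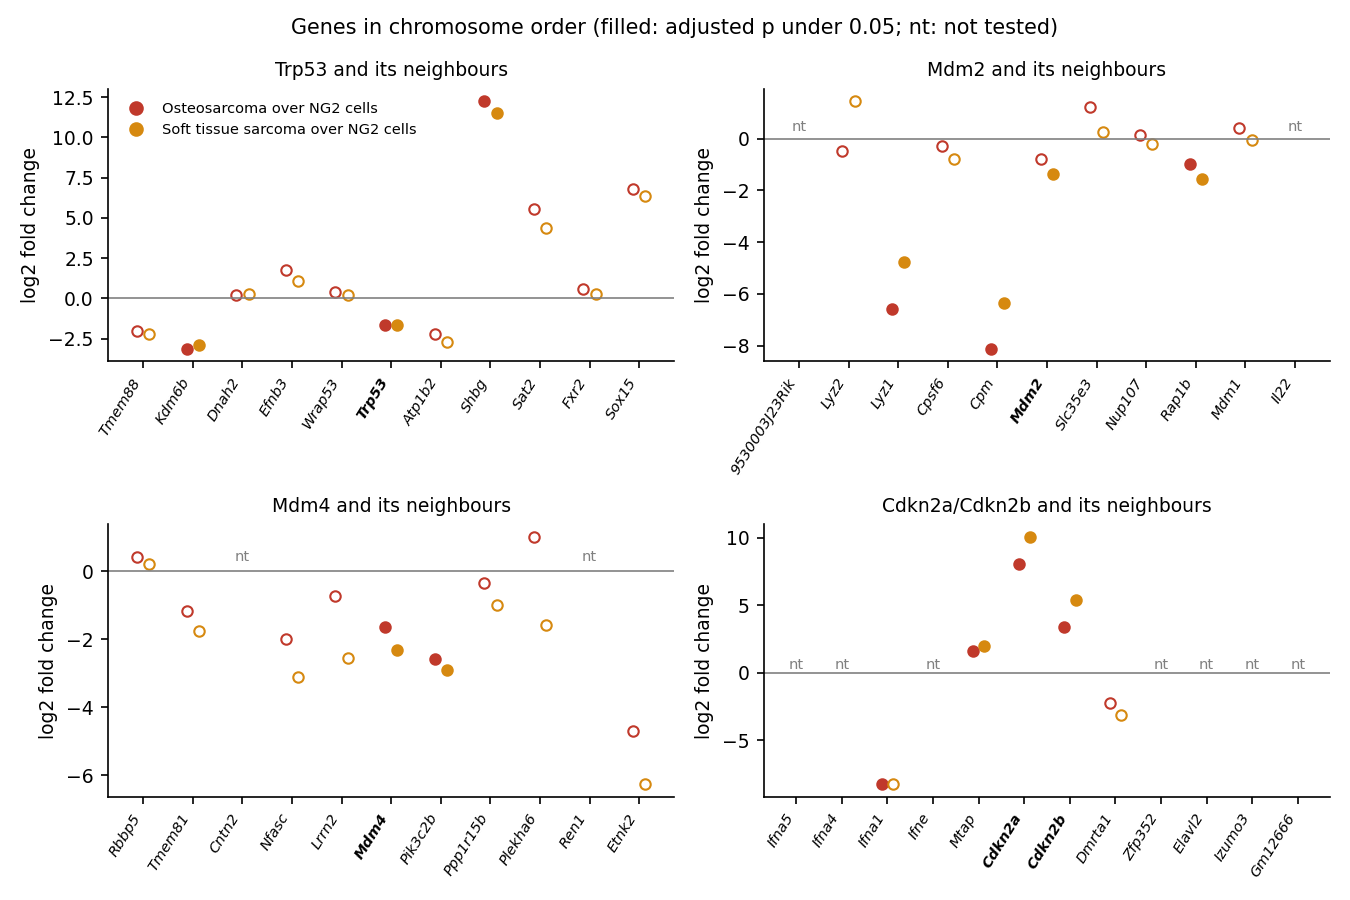
Log2 fold changes over NG2 cells of the members and of the 5 genes on either side of each locus, in chromosome order, for osteosarcomas and soft tissue sarcomas, with called genes filled and untested ones marked nt. At the Cdkn2a and Cdkn2b locus Mtap is the neighbour above 0, at 1.58 and 1.97, and around Trp53 Kdm6b is below 0 at -3.14 and -2.92.

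The proteins that act on the INK4/ARF locus were given by a list of 26 genes: polycomb subunits, the demethylase Kdm6b and regulators of transcription. In osteosarcomas 3 rose, 10 fell and 13 did not pass the test relative to NG2 cells, where 10.5% of all genes rose and 11.0% fell. In soft tissue sarcomas 3 rose, 8 fell and 15 did not pass, where 9.89% of all genes rose and 9.40% fell. The list's median log2 fold change was -0.49 in osteosarcomas and -0.73 in soft tissue sarcomas, beside 0.04 and 0.00 for all genes; Cbx2, at 0 in NG2 cells, lies above the median at its bound too. With 1 library left out at a time fewer genes of the list were called in both tumour types, as was so over all genes. Twist1, a repressor of INK4/ARF and of p53 activity, rose 63.9-fold in osteosarcomas (edgeR adjusted p = 0.00521) and 58.4-fold in soft tissue sarcomas (edgeR adjusted p = 0.00806), with SE of 0.54 and 0.53 on the log2 scale. Twist1 had 31.2 and 19.8 CPM in osteosarcomas, 24.4 and 22.2 CPM in soft tissue sarcomas and 0.499 and 0.298 CPM in NG2 cells. Cbx2, a polycomb subunit, had 6.16 and 4.76 CPM in osteosarcomas and 4.68 and 5.26 CPM in soft tissue sarcomas, and 0 in both NG2 libraries (edgeR adjusted p = 0.00833 for osteosarcomas and 0.0108 for soft tissue sarcomas). Ets1, an activator of INK4A, fell by 3.76 ± 0.44 in osteosarcomas (edgeR adjusted p = 0.00757) and fell by 3.32 ± 0.44 in the soft tissue sarcomas (edgeR adjusted p = 0.0110). Lymphocytes are known to express Ets1 strongly; the summed lymphocyte markers, given above, were high in the same NG2 libraries, and their part in the Ets1 result was not tested. Without any 1 library the osteosarcoma calls on Twist1, Kdm6b and Ets1 held, with adjusted p of at most 0.0321. Cbx7, a polycomb subunit that holds INK4/ARF silent, was picked after its values were seen: it had 8.47 and 5.48 CPM in osteosarcomas, 2.60 and 3.57 CPM in soft tissue sarcomas and 31.1 and 34.5 CPM in NG2 cells. It fell by 2.23 ± 0.43 in osteosarcomas (edgeR adjusted p = 0.0213) and fell by 3.41 ± 0.45 in the soft tissue sarcomas (edgeR adjusted p = 0.0113), and its adjusted p reached 0.0808 in osteosarcomas and 0.0963 in soft tissue sarcomas with 1 library left out. Bmi1, a well-known INK4/ARF repressor and likewise picked afterwards, did not pass, with 23.9 and 22.9 CPM in osteosarcomas, 12.5 and 12.8 CPM in soft tissue sarcomas and 11.7 and 25.0 CPM in NG2 cells.

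Tbx3, a T-box repressor of ARF, was the 1 gene on the lists of regulators and CDK inhibitors that edgeR called between the tumour types. It had 85.3 and 98.1 CPM in soft tissue sarcomas and 2.60 and 2.88 CPM in osteosarcomas, a log2 difference of 5.07 ± 0.33 (edgeR adjusted p = 0.0428, and 0.189 and 0.235 without the first or the second soft tissue sarcoma). NG2 cells had 45.5 and 59.3 CPM. Tbx3 fell by 4.26 ± 0.32 in osteosarcomas relative to NG2 cells (edgeR adjusted p = 0.00419). In soft tissue sarcomas it was at 0.81 ± 0.28 relative to NG2 cells and did not pass (edgeR adjusted p = 0.0896). Its relative Tbx2, picked after its values were seen, stood the other way, at 0.671 and 0.135 CPM in soft tissue sarcomas against 29.7 and 14.2 CPM in osteosarcomas, and missed the threshold (log2 -5.71 ± 0.98, edgeR adjusted p = 0.0887).

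**Figure D5:**
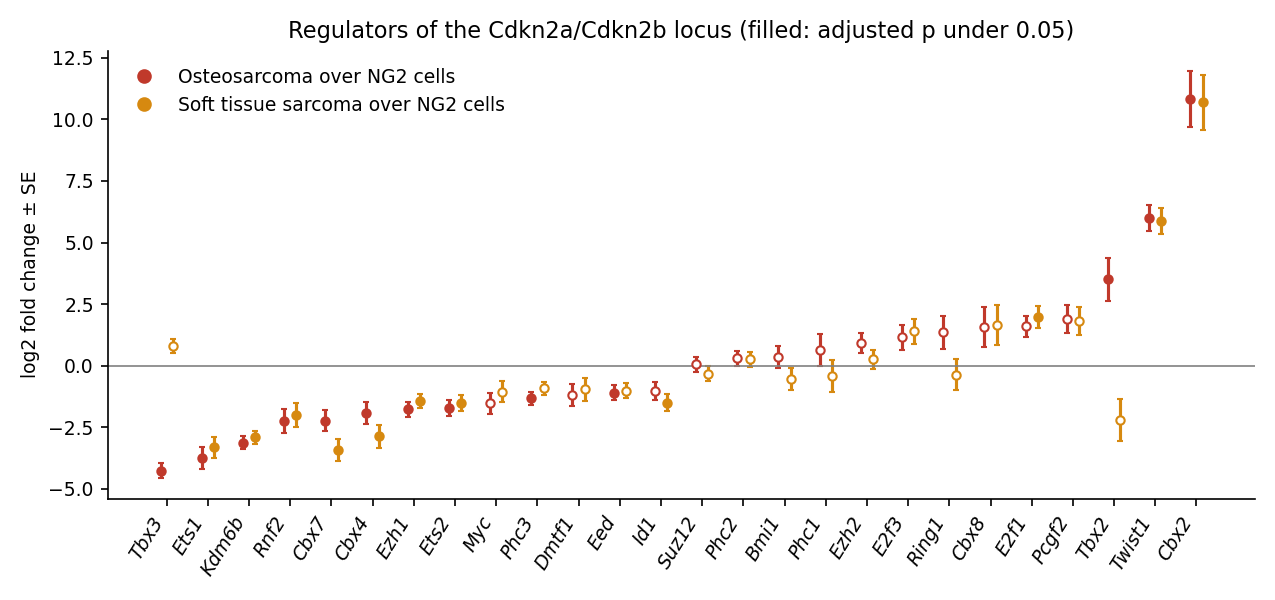
Log2 fold changes over NG2 cells with standard errors, of 26 regulators of the Cdkn2a and Cdkn2b locus, for osteosarcomas and soft tissue sarcomas, with genes past the threshold filled. In this list 10 fell and 3 rose in osteosarcomas, and 8 fell and 3 rose in soft tissue sarcomas.

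Most regulators of the p53 protein did not pass the test. Of 24 such genes 1 rose and 2 fell in osteosarcomas (all genes: 10.5% and 11.0%), and 1 rose and 3 fell in soft tissue sarcomas (all genes: 9.89% and 9.40%), relative to NG2 cells. The called share of this list was no higher than that of all genes in either tumour type, so the counts are no result about the list. Under the other settings, apart from leaving out 1 library, 1 to 8 of them were called in osteosarcomas (2083 to 6966 of all genes). In soft tissue sarcomas 2 to 10 were called under those settings (2209 to 6506 of all genes). Ube4b, a ubiquitin ligase that acts on p53, rose by 1.10 ± 0.26 on the log2 scale in osteosarcomas (edgeR adjusted p = 0.0355) and rose by 1.23 ± 0.26 in the soft tissue sarcomas (edgeR adjusted p = 0.0294). Sirt1, a p53 deacetylase, had log2 fold changes of -2.12 ± 0.51 in osteosarcomas (edgeR adjusted p = 0.0364) and -3.62 ± 0.54 in soft tissue sarcomas (edgeR adjusted p = 0.0139). Ppp1r13b, which encodes the p53 cofactor ASPP1, fell by 2.48 ± 0.40 in osteosarcomas (edgeR adjusted p = 0.0137) and fell by 1.97 ± 0.39 in the soft tissue sarcomas (edgeR adjusted p = 0.0243). The third to fall in soft tissue sarcomas was Trp53bp2, by 1.77 ± 0.42 (edgeR adjusted p = 0.0367). None of these calls held with each library left out in turn (adjusted p up to 0.122 in osteosarcomas and 0.200 in soft tissue sarcomas for Ube4b, Sirt1 and Ppp1r13b), and the soft tissue sarcoma value of Sirt1 was -4.47 without the first soft tissue sarcoma. Of 10 ribosomal and nucleolar proteins that bind Mdm2, 1 rose and 2 fell in each tumour type, where 21.5% of all genes were called in osteosarcomas and 19.3% in soft tissue sarcomas. The riser, Rps27l, a p53 target, had 244 and 301 CPM in osteosarcomas, 222 and 172 CPM in soft tissue sarcomas and 76.9 and 88.0 CPM in NG2 cells (edgeR adjusted p = 0.0141 for osteosarcomas and 0.0311 for soft tissue sarcomas). Rpl23 and Rps27 fell, and both have processed pseudogenes that could share their reads. All 3 osteosarcoma calls were lost without 1 or more of the libraries left out in turn (adjusted p up to 0.119).

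Of 5 other genes named as CDK inhibitors or their partners, 1 rose and 2 fell in osteosarcomas, and 1 rose and 1 fell in soft tissue sarcomas, relative to NG2 cells. Over all genes 21.5% were called in osteosarcomas and 19.3% in soft tissue sarcomas. Cdkn3, a phosphatase gene of dividing cells, rose by 4.30 ± 0.52 on the log2 scale in osteosarcomas (edgeR adjusted p = 0.00775) and rose by 2.72 ± 0.48 in the soft tissue sarcomas (edgeR adjusted p = 0.0188). Cdkn1b, which encodes p27, fell by 1.35 ± 0.35 in osteosarcomas (edgeR adjusted p = 0.0425) and fell by 1.67 ± 0.35 in the soft tissue sarcomas (edgeR adjusted p = 0.0276). Cdkn2aip, which encodes an ARF-binding protein, was the other to fall in osteosarcomas (log2 -2.13 ± 0.56, edgeR adjusted p = 0.0452, and up to 0.132 with 1 library left out; log2 -2.95 without the first osteosarcoma). The osteosarcoma call on Cdkn3 held without any 1 library (adjusted p of at most 0.0446) and that on Cdkn1b did not (0.0529 to 0.160). The summed cell cycle genes were higher in all 4 tumours than in NG2 cells, as given above. Between soft tissue sarcomas and osteosarcomas none of the 24 p53 regulators, the 10 Mdm2-binding proteins or these 5 genes was called by edgeR. Over all genes edgeR called 0.142% there. Of the 3 lists 4, 1 and 2 genes had an unadjusted p under 0.05, and DESeq2 called 2, 0 and 2. Over all genes DESeq2 called 1925, and 3025 had an unadjusted p under 0.05 in edgeR with DESeq2-type scaling.

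Genes whose log2 CPM followed a member most closely were sought among 9643 protein-coding genes with a mean of at least 10 CPM, as a description over 6 libraries that share group differences and depth. Trp53 was followed by Gla (Pearson r = 0.998), Ppp1r16b (0.998) and Prdm2 (0.998). Cdkn2a was followed by Pef1 (0.997), Tsen15 (0.997) and Mrpl18 (0.996), whose ranges were far narrower: Pef1 had 38.5 to 39.6 CPM in osteosarcomas, 48.4 to 50.9 CPM in soft tissue sarcomas and 18.8 to 19.2 CPM in NG2 cells.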

How the data were processed

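RNA from 6 mouse samples was measured in 3 groups of 2 libraries. Per the labels' protocols, about 10 ng of total RNA was reverse transcribed from oligo(dT), with a template switch at the 5′ end, and amplified in 20 PCR cycles before paired-end library construction. The deposited files hold whole-number read counts per Ensembl gene, made by the authors and not normalized. The submitters' processing notes name STAR and HTSeq, along with DESeq2, FastQC, cutadapt and Trim Galore, and the build GRCm38 (mm10). Their versions, the annotation and the strand setting are not given in the sources used here. Entries that name no gene were left out of all totals. Reads assigned to no feature were 19.5% to 23.4% of reads in tumours and 33.2% in both NG2 libraries.

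Counts were analysed with edgeR 4.0.16 in R 4.3.3: genes were kept by filterByExpr (minimum count 10, minimum total 15), scaled by TMM, and fitted by a quasi-likelihood model with 3 groups (19024 genes, 3 residual degrees of freedom). CPM are TMM-scaled, and per-length levels divide them by merged exon length (GENCODE M21, which holds 36723 of the 38561 IDs). Standard errors are the log2 fold change over the square root of F. The fit was tested on simulated data. DESeq2 1.42.0 and the other settings of the closing section were alternatives. The members, gene lists and markers were chosen with earlier results of these data known. The text names all members, up to 4 called genes per list and comparison in order of p, the called neighbours, and the 3 closest genes to Trp53 and Cdkn2a (those to Mdm2 are not reported here), and says where it goes beyond this. Replicate numbers do not pair libraries. An adjusted p is Benjamini-Hochberg from edgeR unless DESeq2 is named.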

Additional observations from a re-analysis of the deposited data

How the results depend on the processing

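Among the 240 member log2 fold changes under other settings, 193 kept their direction and call, 41 kept the direction and lost the call, 2 gained it and 4 turned. Those that turned were never called: Trp63 in osteosarcomas over NG2 cells (-0.73 without the second osteosarcoma, with 1 library left out at a time up to 3.07), Trp53 in soft tissue sarcomas over osteosarcomas (-0.12 without the first osteosarcoma and -0.05 without the first soft tissue sarcoma, up to 0.28) and Cdkn1a in that comparison (0.11 without the first osteosarcoma, down to -0.66). Leaving out 1 library gave 1 to 5 member calls in osteosarcomas over NG2 cells and 0 to 3 in soft tissue sarcomas over NG2 cells, and, over all genes, 1278 to 3429 calls in osteosarcomas over NG2 cells, 0 to 793 in soft tissue sarcomas over NG2 cells and 0 to 315 between the tumour types. In a fit whose group keeps 1 library, that library is assumed to vary like the others. DESeq2 called 6966 genes in osteosarcomas and 6506 in soft tissue sarcomas over NG2 cells, 1925 between the tumour types, and 2 members (Cdkn2a and Cdkn2b) between the tumour types. Without the low-count filter 409 genes were called between the tumour types. With only the 4 libraries compared, 2083 genes were called in osteosarcomas over NG2 cells, 5452 in soft tissue sarcomas over NG2 cells, and 0 between the tumour types (3073 at an unadjusted p under 0.05). The replicate numbers do not pair libraries (correlation of same-numbered deviations -0.09 to 0.05), and with a replicate block 2660 genes were called in osteosarcomas and 2209 in soft tissue sarcomas over NG2 cells and 8 between the tumour types, with 5 member calls over NG2 cells in each tumour type. Of the other called genes eligible for naming, 8 of 21 in osteosarcomas and 0 of 20 in soft tissue sarcomas kept the call without each library in turn; this, and the list counts, were added after seeing the data. The causes were not tested. Scaling moved the median of all genes by at most 0.054 on the log2 scale. Depth limits the Cdkn2a ratio through its 1 and 2 counts in NG2 cells, and Trp73 through its 0 counts in all 6 libraries.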
